A study of Homo sapiens with 9 samples.

Results

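The places where the splicing factor SF3B1 was crosslinked to RNA are described here for 5 long non-coding RNA (lncRNA) genes, several of them linked to leukaemia. The genes were MIR17HG, CCDC26, PVT1, LINC01029 and LINC02476. They were picked by name: MIR17HG, CCDC26, LINC01029 and LINC02476 for their many sites in this same list, and PVT1 as the neighbour of MYC. A site belonged to a gene when its centre lay within the RefSeq span of the gene on the strand of the gene. For every member but MIR17HG the strand was that of its sites, so the sites also set which end is 5′ and which 3′. Together the 5 genes held 169 of the 96852 sites in the list, which was 0.174%. They are 5 of 18303 lncRNA genes in the RefSeq table of assembly GRCh38.p14. Since the number of sites chose the members, those numbers are a description and were not tested.

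The cells were K562, an established human leukaemia line. The labels call its source chronic lymphoid leukemia, while the line is generally known as one from chronic myeloid leukaemia. By iCLIP, proteins are fixed with ultraviolet light (here 400 mJ/cm2 at 254 nm) to the RNA they touch, and sequencing reads out the point of contact. All 9 samples were crosslinked K562 cells. SF3B1 was precipitated from 3 samples of genotype SF3B1 wt/wt (Horizon Discovery) and from 2 samples of genotype SF3B1 K700E/wt (Horizon Discovery), and U2AF2 was precipitated from 4 samples of genotype SF3B1 wt/wt (ATCC). The single table used here is a merged site list that the labels attach to the 3 SF3B1 wt/wt samples, and its header keeps sites that all replicates of either condition reproduced. It has no value per sample and no read number, so the depth is unknown, no spread between samples can be given, and the K700E and U2AF2 comparisons were not analysed here. Transcript abundance was not measured in this list, and the part of abundance in any number of sites was not tested.

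SF3B1 is a core protein of the U2 small nuclear ribonucleoprotein, which settles on the branch point of an intron and helps to define the 3′ splice site. Many lncRNAs are spliced like messenger RNAs, so this machinery also meets them. MIR17HG is the host transcript of the miR-17-92 cluster, a group of growth-promoting microRNAs that MYC can switch on and that is amplified in some lymphomas. PVT1 lies next to MYC and is gained with it in many cancers. CCDC26 lies further along the same chromosome arm and is linked to acute myeloid leukaemia. Little is established about LINC01029 and LINC02476.

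The microRNAs made from MIR17HG are shown first, because their hairpins serve below as landmarks for the sites of this gene. Of its 36 sites, 9 lay within 100 nt of a hairpin and 0 were centred in one. Each line gives the mature strand that is usually the active one, 5′ to 3′, from RefSeq (GRCh38.p14), and capitals mark the seed, bases 2 to 8, which pairs with target messenger RNAs.
hsa-miR-17-5p: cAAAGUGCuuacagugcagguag
hsa-miR-20a-5p: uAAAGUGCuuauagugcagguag
hsa-miR-18a-5p: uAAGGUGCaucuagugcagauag
hsa-miR-19a-3p: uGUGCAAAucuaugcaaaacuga
hsa-miR-19b-3p: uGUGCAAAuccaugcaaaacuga
hsa-miR-92a-3p: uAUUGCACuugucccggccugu
The seeds fall into 4 groups. miR-17-5p and miR-20a-5p share AAAGUGC, miR-19a-3p and miR-19b-3p share GUGCAAA, and miR-18a-5p and miR-92a-3p each have their own.

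MIR17HG was the most densely marked of the 5 genes. It had 36 sites in a span of 6.89 kb on the plus strand, chr13:91347687-91354577, or 5.22 sites per kb. Density placed it in position 3 of the 78 lncRNA genes that had at least 5 sites and overlapped no protein-coding gene; these 78 were 0.674% of such genes. The sites were not spread over the whole gene. They began 355 nt from the 5′ end, and 35 of the 36 had been passed before the start of the MIR20A hairpin.

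The position of the hairpins divides MIR17HG into 3 stretches. Between the gene start and the first hairpin, MIR17, lay 29 sites in 2918 nt, or 9.94 per kb. The hairpin cluster itself, chr13:91350605-91351391, held 6 sites in 787 nt, or 7.62 per kb. The 3186 nt after the last hairpin, MIR92A1, held 1 site, or 0.314 per kb. The 1000 nt just before MIR17 held 19 sites, against 4 in the first 1000 nt of the gene. The marks were thus concentrated ahead of the microRNAs and nearly stopped behind them.

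Within the cluster, none of the 6 sites was centred in a hairpin. The 6 hairpins add up to 473 nt of the 6891 nt of the gene, with 0 site centres. A count of 0 among 36 sites allows a share of up to 8.33% when the limit is set at 3 counts. The share of the gene length taken up by hairpins lies below this limit, so avoidance of hairpins was not shown. All 6 sites lay in the spacers on either side of MIR19A. The spacer of 69 nt between MIR18A and MIR19A held 3 sites, and the spacer of 92 nt between MIR19A and MIR20A held 3. The other 3 spacers held 0. The nearest centres were 2 nt before the MIR19A hairpin and 4 nt after it, so this hairpin had a close site at each end. The site ahead of it, chr13:91350887-91350891, reached the first base of the hairpin, which is the capital letter here.
MIR19A hairpin: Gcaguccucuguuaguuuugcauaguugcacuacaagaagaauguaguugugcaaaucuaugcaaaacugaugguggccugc
MIR17 had its nearest site 23 nt upstream, MIR18A 54 nt downstream and MIR20A 51 nt upstream. MIR19B1 and MIR92A1 had none within 100 nt.

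**Figure D1:**
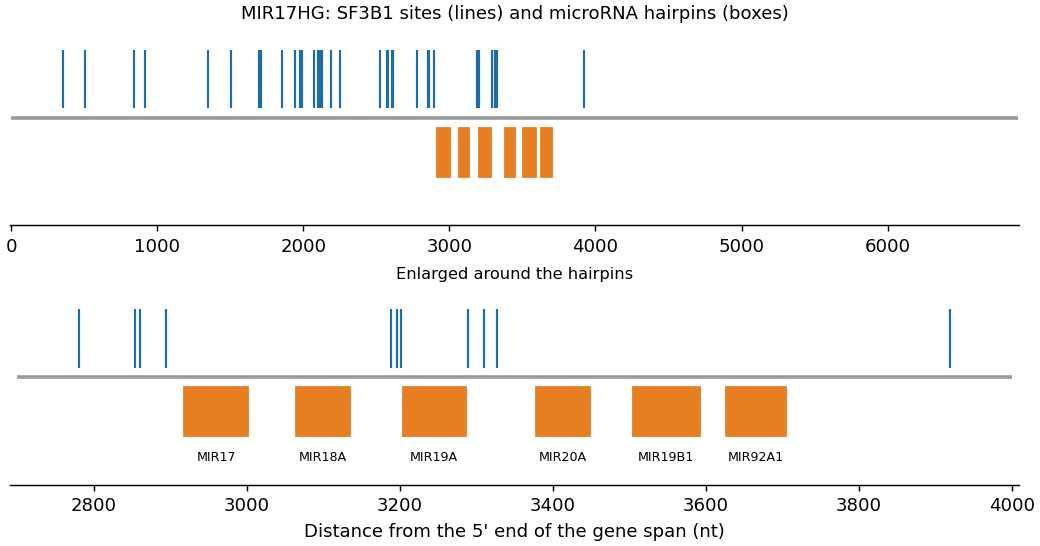
SF3B1 sites (blue lines) and microRNA hairpins (orange boxes) along MIR17HG, as the distance in nt from the 5′ end of the gene; the lower panel enlarges the hairpins. Of the 36 sites, 29 lie before MIR17, 6 flank MIR19A, 0 are centred in a hairpin and 1 follows MIR92A1.

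Hairpins in other genes were counted in the same way, for genes with at least 10 sites on the strand of the hairpin. Of 241 such hairpins, those of MIR17HG included, 12.9% held a site centre, 13.7% overlapped a site when its full width was used, and 26.6% had a site inside or within 100 nt. In MIR17HG these numbers were 0 of 6, 1 of 6 and 4 of 6 hairpins. These are hairpins of a single transcript, so no test was made. The 241 hairpins were not divided by type or by their place in the host. The 0 of 6 is therefore not shown to be particular to MIR17HG. MIR223HG, the host of the myeloid microRNA miR-223, is described because it was among the nearest genes by the measure given further on. It had 24 sites in 4.97 kb, 6 of them within 100 nt of the MIR223 hairpin and 0 inside it, with the nearest 20 nt upstream and 90 nt downstream. MCM7, which hosts the related cluster of MIR106B, MIR93 and MIR25, had 26 sites in 8.67 kb, with 0 inside the 3 hairpins and a nearest site 27 nt upstream of MIR93. The seeds of all 3 of these microRNAs also occur in the MIR17HG cluster, as their mature strands show with the seed in capitals.
hsa-miR-106b-5p: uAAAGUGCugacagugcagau
hsa-miR-93-5p: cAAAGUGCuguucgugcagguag
hsa-miR-25-3p: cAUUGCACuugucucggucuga
The 6 hairpins of the other related cluster, from MIR106A to MIR363 on chromosome X, had 0 sites inside or within 100 nt. MIR106AHG, the lncRNA gene named as host of MIR106A, had 0 sites in its whole 4939 nt. The absence at these hairpins therefore says nothing about hairpins as such.

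Among lncRNA genes whose name marks them as a microRNA host, MIR17HG had the most sites, but it was picked for its many sites. Of 87 such genes, 15 (17.2%) had a site, beside 3.45% of all 18303 lncRNA genes. This difference was not tested. After MIR17HG came MIR223HG with 24, MIRLET7A1HG with 17 and MIR570HG with 10.

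PVT1 had the fewest sites of the 5 genes, 11 over 306.7 kb on the plus strand, chr8:127794524-128101256, or 0.0359 per kb. None lay in its 5′ part. The first was 194.6 kb from the 5′ end, so 63.4% of the gene passed before any site, a longer lead than in 93.4% of 2965 protein-coding genes with at least 10 sites. The median lead was 21.6% of the gene over those genes and 6.61% over 33 other lncRNA genes with at least 10 sites. The number of sites was not matched, and only 7.82% of those protein-coding genes had fewer sites than PVT1. The sites then ran in small groups to the end of the gene: 2 sites at 194.6 kb, 3 within 35 nt at 203.6 kb, single ones at 215.1 and 222.1 kb, a pair of sites 3.92 kb apart from 275.6 kb, and a pair 4.43 kb apart from 302.0 kb. The last lay 332 nt before the annotated 3′ end.

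PVT1 hosts the microRNAs MIR1204, MIR1205, MIR1206 and MIR1207 within this span. Their 4 hairpins had 0 sites inside and 0 within 200 nt. MIR1206 had the closest, 645 nt downstream. MIR1204 and MIR1205 lay wholly in the stretch without sites, 193080 and 28413 nt ahead of the first one.

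MYC, the transcription factor gene whose end lies 51.6 kb before the start of PVT1, also had 11 sites. They fell in 7.52 kb, or 1.46 per kb, which was 40.8 times the density of PVT1 over its whole span. From its first to its last site, PVT1 had 0.0984 sites per kb. From the last site in MYC to the first in PVT1 the list held no site over 248.3 kb. MYC was the only one of 18 annotated neighbours within 500 kb of PVT1 with any site. CASC8, CASC11 and CCAT2, which are among the lncRNA genes ahead of MYC, had 0 each.

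CCDC26 had 34 sites over 328.5 kb on the minus strand, chr8:129351694-129680239, or 0.103 per kb. Its first 122.0 kb, 37.1% of the gene, had none, a longer lead than in 72.6% of the same protein-coding genes. The sites then came in 8 islands, where an island links sites at most 5 kb apart, and the islands covered 3.75% of the gene. They held 6 sites from 122.0 to 129.3 kb, 2 near 172.4 kb, 2 near 181.0 kb, 6 from 188.4 to 190.5 kb, 3 near 280.4 kb, 2 from 290.5 to 292.1 kb, 5 near 309.8 kb and 8 from 327.2 to 328.2 kb. The widest gap between neighbours was 89.9 kb. The hairpin of MIR3686 inside the gene had its nearest site 5613 nt upstream.

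The 3′ end of CCDC26 carried the cluster with the most sites in the 5 genes. A run of 6 sites had centres within 39 nt, chr8:129352082-129352125, ending 390 nt before the annotated 3′ end. Among all clusters in the list, formed by linking neighbours at most 60 nt apart, 183 of 61570 (0.297%) had 6 sites or more. The last 10% of the gene held 13 of the 34 sites, or 38.2% (95% Wilson interval 23.9% to 55.0%). These 13 include the run of 6 and a cluster of 4 within 43 nt. They are not independent, so the interval covers counting only. The median over protein-coding genes with at least 10 sites was 7.69%, and 90.4% of those genes had a smaller share than CCDC26. The neighbours CYRIB and ASAP1 had 18 and 12 sites, and the other 17 genes within 500 kb had 0.

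LINC01029 held the most sites of the 5 genes, 45 over 22.4 kb on the minus strand, chr18:77971294-77993727, or 2.01 per kb. Unlike the long genes, it was marked from its very start: the first site was centred 5 nt from the annotated 5′ end, and 5 sites lay within the first 0.5 kb. A group of 11 followed between 2.5 and 4 kb, and 17 lay between 5.5 and 8 kb. From 9 to 18 kb there were 12 more, and the last lay 5387 nt before the 3′ end. The last 10% of the gene held 0 of 45 sites (95% Wilson upper limit 7.87%). The 5 annotated neighbours within 500 kb, all lncRNA genes or pseudogenes, had 0 sites.

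LINC02476 held 43 sites over 287.9 kb on the minus strand, chr7:119619430-119907375, or 0.149 per kb. A lone site lay 16.9 kb from the 5′ end, and then 88.4 kb passed without any. Most sites fell in 3 islands in the middle of the gene: 11 sites from 105.3 to 107.7 kb, 11 from 121.3 to 125.9 kb and 8 from 142.5 to 146.1 kb. A further 6 lay from 224.5 to 225.6 kb. All 9 islands covered 4.55% of the gene. The last site lay 317 nt before the annotated 3′ end. The 5 neighbours within 500 kb had 0 sites, among them KCND2, a potassium channel gene.

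**Figure D2:**
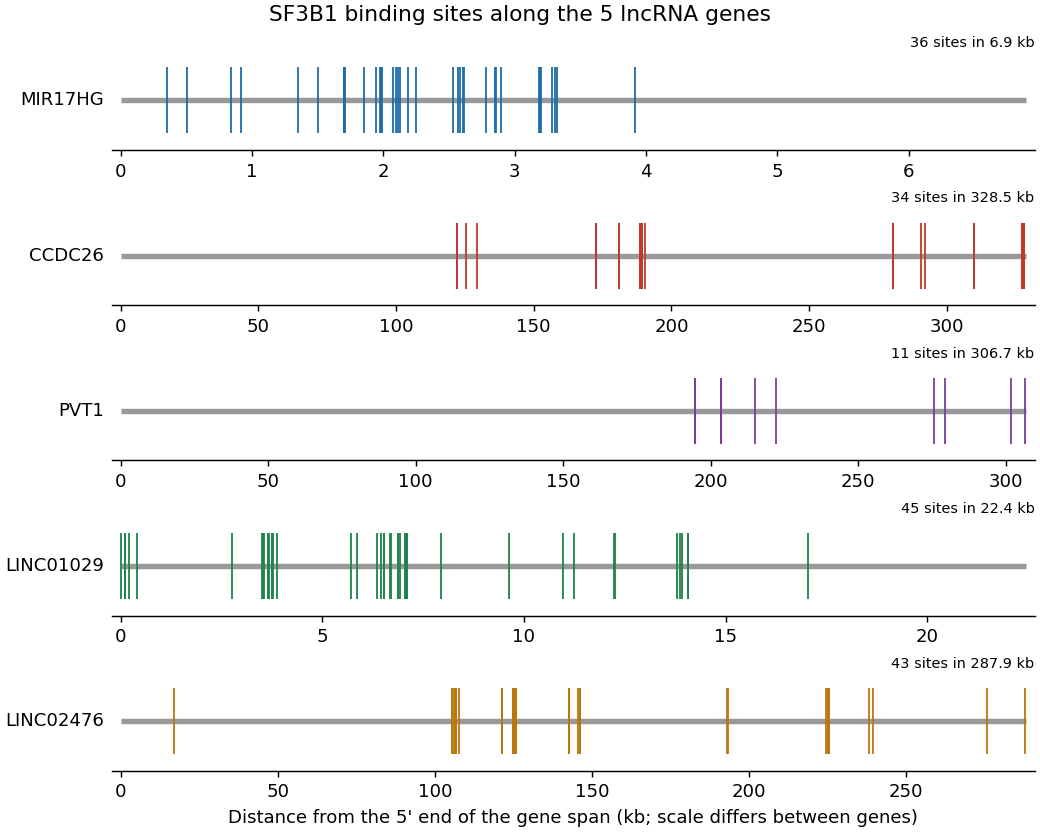
SF3B1 sites (coloured lines) along each gene span (grey bar), drawn 5′ to 3′ as distance in kb from the 5′ end, with a separate scale for each gene. MIR17HG and LINC01029 are marked mainly in their front and middle, PVT1 has no site before 194.6 kb and CCDC26 none before 122.0 kb.

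The 3 longest genes shared a site close to the annotated 3′ end: 390 nt before it in CCDC26, 332 nt in PVT1 and 317 nt in LINC02476. MIR17HG and LINC01029, whose last sites lay 2971 and 5387 nt before the end, did not. A site within 500 nt of the 3′ end was present in 11.7% of 2965 protein-coding genes and in 8 of 33 (24.2%) other lncRNA genes with at least 10 sites that overlap no protein-coding gene. This distance was set after the values were seen, and with 5 genes no test was made.

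In each gene the sites kept to a single strand. All 169 sites lay on 1 strand of their gene, and 0 lay on the other strand within the spans, which allows a share of up to 1.78% by the same limit of 3 counts. For MIR17HG the strand came from RefSeq. The RefSeq entries used here gave none for the other 4 genes, whose strand is that of their sites, so there the agreement is among sites only. In the 100 kb beyond either end of MIR17HG, CCDC26, LINC01029 and LINC02476 the list had 0 sites on either strand. The corresponding flanks of PVT1 held 11, all in MYC.

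Sites were scarce in most lncRNA genes. Of 18303 lncRNA genes, 631 (3.45%) had a site on their strand and 15 (0.082%) had at least 30. Of protein-coding genes, 38.0% had a site and 4.01% at least 30. Of the 11572 that overlapped no protein-coding gene, 2.1% had a site, 0.328% had at least 10 and 0.0691%, or 8 genes, had at least 30. MIR17HG, CCDC26, LINC01029 and LINC02476 are 4 of these 8, as their choice requires. The others were MALAT1 with 60, ERVE-5 and the overlapping LOC124904681 with the same 37 sites, and LOC105376944 with 31. Just outside lay ZFAS1 with 28 and MIR223HG with 24. PVT1 with 11 sites stood at position 33 in this group, against 2 for LINC01029, 3 for LINC02476, 6 for MIR17HG and 7 for CCDC26. Ranking all lncRNA genes instead gave positions 3 for LINC01029, 5 for LINC02476, 9 for MIR17HG, 11 for CCDC26 and 65 for PVT1.

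**Figure D3:**
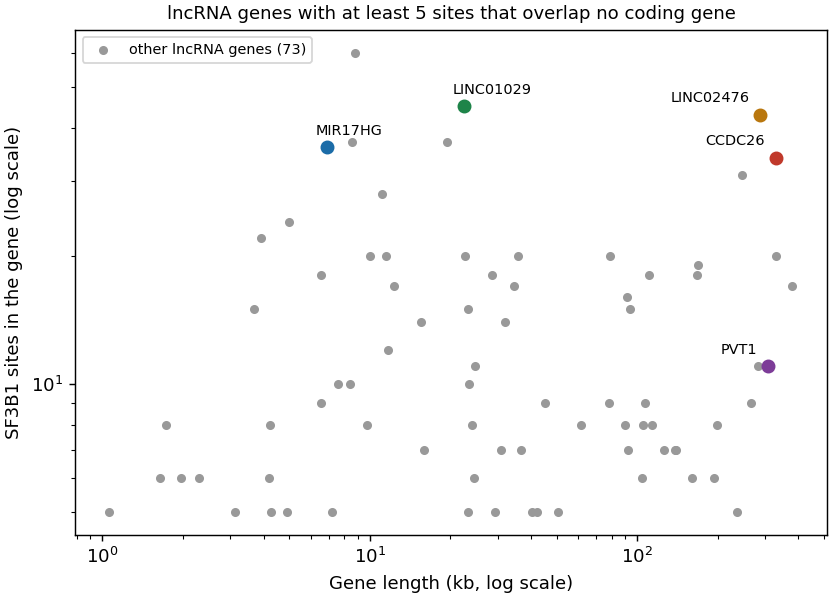
Number of SF3B1 sites against gene length in kb (both axes logarithmic) for the 78 lncRNA genes with at least 5 sites that overlap no protein-coding gene; the 5 members are coloured. LINC02476, CCDC26 and PVT1 are among the longest, and MIR17HG reaches 36 sites in 6.89 kb.

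Number and density together placed each member beside different genes. The measure was the distance on the log2 scale of sites and of sites per kb, over the 243 lncRNA genes with a site that overlap no protein-coding gene. MIR17HG was nearest to ERVE-5 (37 sites, 4.33 per kb), then to MIR223HG and SNHG1. CCDC26 and LINC02476 were both nearest to LOC105376944 (31 sites, 0.126 per kb) and then to each other. PVT1 was nearest to LOC101927960 (11 sites, 0.0389 per kb), followed by FTX and MIR548XHG. LINC01029 was nearest to LOC124904681 (1.91 per kb), followed by ZFAS1, the host of small nucleolar RNAs, and ERVE-5.

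A list of 30 other lncRNAs with links to leukaemia or blood cells served as a comparison. It was drawn up with earlier results of these data known. Of the 30, 14 had a site, 6 had at least 10 sites and 1 had at least as many as CCDC26. MALAT1 had 60 sites, SNHG1 had 22, GAS5 had 21, and CRNDE and NEAT1 had 20 each. The median was 0. RefSeq lists 1 of the 30, TUG1, as protein-coding. The share with a site was 46.7%, with TUG1 and its 6 sites included, beside 3.45% of all lncRNA genes, which leave TUG1 out. Because the list was drawn up with results known, this difference was not tested. The abundance of the RNAs was not measured here.

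Sites came in small clusters. At a linking distance of 60 nt, the 169 sites formed 94 clusters: 17 in MIR17HG, 18 in CCDC26, 8 in PVT1, 26 in LINC01029 and 25 in LINC02476. Of these 94, 42.6% held at least 2 sites, and 25.5% held at least 3. In the whole list the shares were 36.7% and 14.3%. Since the members were chosen for many sites, this difference was not tested. Sites per cluster were 2.12 in MIR17HG, 1.89 in CCDC26, 1.73 in LINC01029, 1.72 in LINC02476 and 1.375 in PVT1. The median was 1.89 over 33 other lncRNA genes and 1.62 over 2965 protein-coding genes, all with at least 10 sites. Neighbouring sites within a gene were a median of 42 nt apart in MIR17HG, 80 nt in LINC01029, 145 nt in CCDC26, 152 nt in LINC02476 and 5702 nt in PVT1. Of the 164 neighbour distances, 48 (29.3%) were at most 12 nt. In the whole list, where distances between genes are included, 15.9% of neighbour distances were at most 12 nt and the median was 201 nt. Median distances within a gene had a median of 62.5 nt over the 33 other lncRNA genes (quartiles 37 and 100 nt). Over the protein-coding genes it was 163 nt (quartiles 98 and 319 nt). Of the members, only MIR17HG lay below 62.5 nt. These differences were not tested either.

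**Figure D4:**
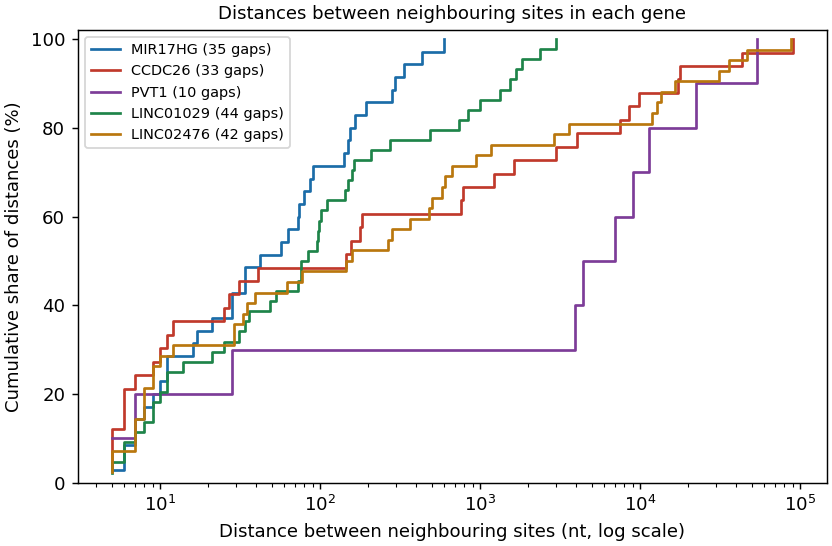
Cumulative share (%) of the distances between neighbouring sites in each gene, against distance in nt on a log axis. The curve of MIR17HG ends at 592 nt and that of LINC01029 at 2968 nt, while those of CCDC26 and LINC02476 reach 89.9 and 88.4 kb; PVT1 has 3 of its 10 distances below 60 nt.

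A spacing of 25 to 45 nt between sites was counted over the whole list, and the 5 genes together had it about as often as other genes. Whether it is more common than other spacings was not tested. A partner at this distance was present for 17 of 36 sites in MIR17HG (47.2%, 95% Wilson interval 32.0% to 63.0%). CCDC26 had 16 of 34 (47.1%, interval 31.5% to 63.3%), LINC02476 had 14 of 43 (32.6%, interval 20.5% to 47.5%), LINC01029 had 13 of 45 (28.9%, interval 17.7% to 43.4%) and PVT1 had 3 of 11 (27.3%, interval 9.75% to 56.6%). All 5 intervals overlap. Together 63 of 169 sites had a partner, 37.3% (interval 30.3% to 44.8%), beside 37.3% in other lncRNA genes, 36.5% in protein-coding genes and 36.4% in the whole list. The intervals cover the counting of sites only, and sites of one gene are not independent. Their overlap therefore does not show that the genes are alike.

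**Figure D5:**
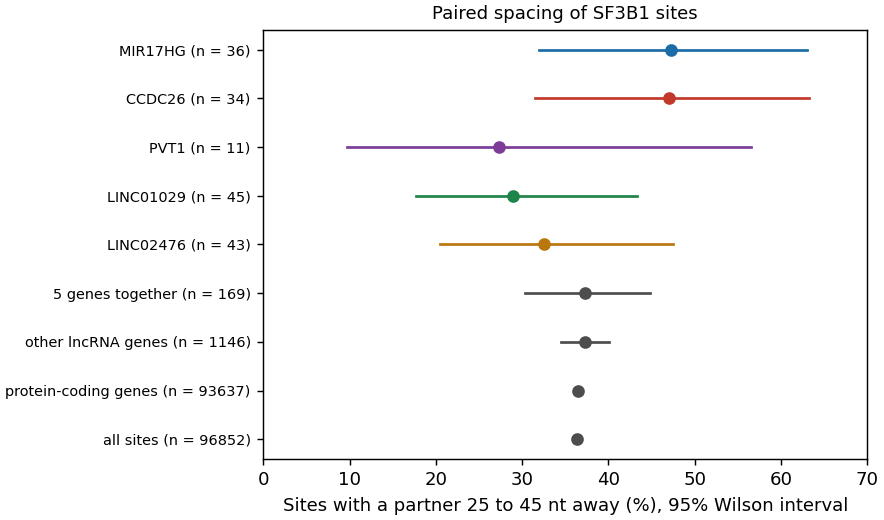
Share (%) of sites with another site 25 to 45 nt away on the same strand; points are shares, lines 95% Wilson intervals, n the number of sites. The 5 genes together (37.3%) lie within 1 percentage point of the whole list (36.4%), and the single genes range from 27.3% to 47.2%.

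Clusters that split into exactly 2 elements 25 to 45 nt apart were also counted in each gene, as paired footprints; their distances are bounded by this definition. LINC02476 had 5, with a median of 35 nt between the elements, CCDC26 had 4 (34.5 nt), LINC01029 had 3 (35.5 nt), MIR17HG had 2 (40.1 nt) and PVT1 had 1 (31.5 nt). The median over all 10644 in the list was 36.0 nt. Of the pairs in MIR17HG, 1 ended 23 nt ahead of the MIR17 hairpin.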

How the data were processed

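The members and gene lists were chosen with earlier results of these data known. The authors deposited 1 list of SF3B1 sites, which per the file headers were merged to a width of 5 nt and kept where every replicate of at least 1 condition showed them. The score column of the deposited list is 0 in every row, so sites could not be ranked. The submitters' processing notes name FastQC 0.11.8, STAR 2.7.3a and 2.6.1b, UMI-tools 1.0.0, bedtools 2.27.1 and the builds GRCh38.p10 and GRCh38.p12, without role or order; the site caller is not given in the sources used here. Merging and the demand for reproducibility can leave out close sites and sites in rare RNA.

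Positions were converted to 1-based coordinates and set against RefSeq gene spans (GRCh38.p14), which give no exons. Exon ends were therefore not used, and the planned count near exon ends or hairpins covers hairpins only. Strand came from RefSeq for 11461 of 18303 lncRNA genes and otherwise from the strand with more sites, which for genes overlapping another gene can be that of the other gene. Genes overlapping on 1 strand share sites. Hairpin positions of the 6 microRNAs of MIR17HG and their sequences came from RefSeq, and the other 5 hairpins from the gene table. Named genes were the members, their microRNAs and related hosts, neighbours within 500 kb, the 5 genes with the most sites of a list of 30 lncRNAs, and the 3 nearest genes to each member. TUG1, CASC8, CASC11, CCAT2, KCND2, the genes just outside the 30-site level and the other microRNA hosts were named after their values were seen. No test was run, because the list has no value per sample. Counting was tested on simulated sites in 400 genes and recovered in all 400. Alternatives changed the placement, merging, windows and genes ranked. Python 3.11.15, NumPy 2.4.6, pandas 2.3.3, SciPy 1.17.1 and matplotlib 3.10.9 were used.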

Additional observations from a re-analysis of the deposited data

How the results depend on the processing

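Of 19 recalculations of values over all 5 genes, 17 stayed within the set limits (1.5 times for counts, densities and ranks, the Wilson interval for shares) and 2 moved. Narrowing the partner distance to 30 to 40 nt lowered the share of sites with a partner to 27.2%, since fewer distances qualify. Ranking by sites per kb among all lncRNA genes with at least 5 sites put the median member at position 140, since the long genes have low densities. Of 95 recalculations for single genes, 12 moved. Over the stretch from first to last site, density rose to 10.1 sites per kb in MIR17HG, 0.165 in CCDC26 and 0.0984 in PVT1. Linking at 100 nt left 11 clusters in MIR17HG. Ranked by sites per kb among lncRNA genes with at least 5 sites, MIR17HG stood at position 5, LINC01029 at 27, LINC02476 at 140, CCDC26 at 149 and PVT1 at 177. Leaving out lncRNA genes that overlap a protein-coding gene moved CCDC26 from 11 to 7, PVT1 from 65 to 33 and LINC02476 from 5 to 3. The alternative of 1000 nt at the 3′ end was chosen after seeing the data and left the count at 3 genes. Exon ends, score ranks and leaving out replicates could not be run on this list. No paired analysis was possible because replicates are merged in the deposited sites. A stretch with 0 sites cannot be told from RNA too rare to yield a reproducible site.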
